A study of Mus musculus with 9 samples.

Results

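The 7923 peaks of open chromatin that lie in coding exons are described here. They were taken from a table of 115727 peaks of the assay for transposase-accessible chromatin with sequencing (ATAC-seq), by its annotation column: a peak is a member where that column, without its trailing number, reads CDS Exon. They are 6.85% of the peaks listed and belong to 5059 genes. The cells were naive CD4+ T cells, resting helper cells before any contact with antigen, isolated from C57BL/6 mice and left untreated, and 50000 of them entered each tagmentation reaction. Stat6_KO, Il21e_KO and WT mice gave 3 libraries each. Stat6_KO cells lack STAT6, the transcription factor through which interleukin-4 acts. For Il21e_KO, also written IL21KO, the deleted DNA is not given in the sources used here, and neither are the age of the mice or whether replicates came from different animals. All p-values therefore measure only the spread between these libraries, which may be technical.

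In ATAC-seq a transposase cuts DNA that is not wrapped in nucleosomes, and reads pile up at promoters and enhancers. Exons are as a rule wrapped in nucleosomes more firmly than the introns beside them, and most of a coding sequence is closed chromatin. Open coding exons are known where an alternative promoter or an enhancer overlaps coding sequence, so such a sequence can serve both the protein and gene regulation. A bulk library cannot tell a site that is open in fewer cells from a site that is open for less time in each cell.

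Most genes with an open coding exon had an open promoter as well, and so did most genes of the whole table. Of the 5059 genes, 3821 (75.5%) also carried a peak at a transcription start site (TSS), and 1238 had none listed. Among all 16126 genes with a peak assigned to them, 12801 carried a TSS peak, a slightly larger share. An open promoter was thus not particular to genes with an open coding exon. The promoters of 3 strong members show both situations: Rnf157, the gene of the strongest coding exon peak, which has a TSS peak, and Ptger2 and Sag, whose coding exon peaks are among the strongest of genes without a TSS peak. RefSeq promoters were looked up for the 18 genes with the strongest peaks of both kinds and found for 12. Each sequence runs 5′ to 3′ over 300 bases, from 250 before to 50 after the start site of the GRCm38.p6 annotation, with every CG in capitals. That start site need not be the one used in the peak table, which follows the mm9 build.
Rnf157: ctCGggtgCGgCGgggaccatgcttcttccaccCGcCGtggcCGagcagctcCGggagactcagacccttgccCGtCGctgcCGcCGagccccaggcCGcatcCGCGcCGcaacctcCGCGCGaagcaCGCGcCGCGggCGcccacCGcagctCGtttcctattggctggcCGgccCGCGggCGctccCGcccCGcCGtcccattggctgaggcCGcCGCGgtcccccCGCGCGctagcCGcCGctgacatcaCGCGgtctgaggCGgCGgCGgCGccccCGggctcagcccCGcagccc
Ptger2: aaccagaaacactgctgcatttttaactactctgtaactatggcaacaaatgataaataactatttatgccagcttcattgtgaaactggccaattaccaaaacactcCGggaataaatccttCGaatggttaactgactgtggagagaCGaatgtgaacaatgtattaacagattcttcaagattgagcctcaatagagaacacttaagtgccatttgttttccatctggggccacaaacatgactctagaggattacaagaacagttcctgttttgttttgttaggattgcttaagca
Sag: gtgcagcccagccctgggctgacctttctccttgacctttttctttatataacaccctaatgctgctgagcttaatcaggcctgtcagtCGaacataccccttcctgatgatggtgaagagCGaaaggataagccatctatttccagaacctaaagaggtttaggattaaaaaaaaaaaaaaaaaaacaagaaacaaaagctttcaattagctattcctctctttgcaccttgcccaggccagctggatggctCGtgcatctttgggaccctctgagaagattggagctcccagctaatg
The Rnf157 promoter, at chr11:116412983-116413282 on the minus strand, held 48 CG steps and 78.3% G and C. Ptger2, at chr14:44987861-44988160 on the plus strand, held 3 CG steps and 37.7% G and C. The Sag promoter, at chr1:87803430-87803729 on the plus strand, also held 3, with 44.7% G and C. Among all 32851 RefSeq promoters in that table, 94.6% held at least 1 CG and 34.6% held 15 or more. CG reads the same on both strands. Of the other looked-up genes without a TSS peak, Ccdc47 held 27 CG steps, Csf2ra 23, Fam65c 5, and Rpgrip1 and Vsig10l 3 each. Of those with one, Sidt2 held 27 and Rere 24, while the promoters of Fgf13 held 3, 40, 6 and 37. Those of Shisa5 held 13, 5, 5, 3 and 4, so counts were high and low on both sides. These counts describe the letters of promoters and say nothing about the factors bound there.

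Coding exon peaks were short and mostly weak, as were the other peaks outside start sites. Their median width was 436 bp, with a range from 72 to 2737 bp. The median was 433 bp over all listed peaks, 380 bp in introns and 1064 bp at start sites. Levels are given in CPM, counts per 1000000 reads that the library had in all listed peaks, and the mean over the 9 libraries had a median of 2.73 CPM and a maximum of 85.1. That median was 3.34 CPM over all listed peaks, 2.31 in introns and 23.7 at start sites. Of the 7923 peaks, 1945 (24.5%) were above 10 CPM and 4095 (51.7%) were below 3 CPM, a level that corresponds to few reads in libraries where 1 read equalled 0.555 to 0.953 CPM. Per length, the median level was 7.16 CPM per kb, against 6.89 in introns, 8.21 in 5′ UTR exons, 8.26 between genes and 21.6 at start sites. The coding exon median lay near that of introns and well below that of start sites. Wider peaks had higher levels: Spearman's rho between width and CPM was 0.87 over the 7923 peaks, which share the same 9 libraries.

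**Figure D1:**
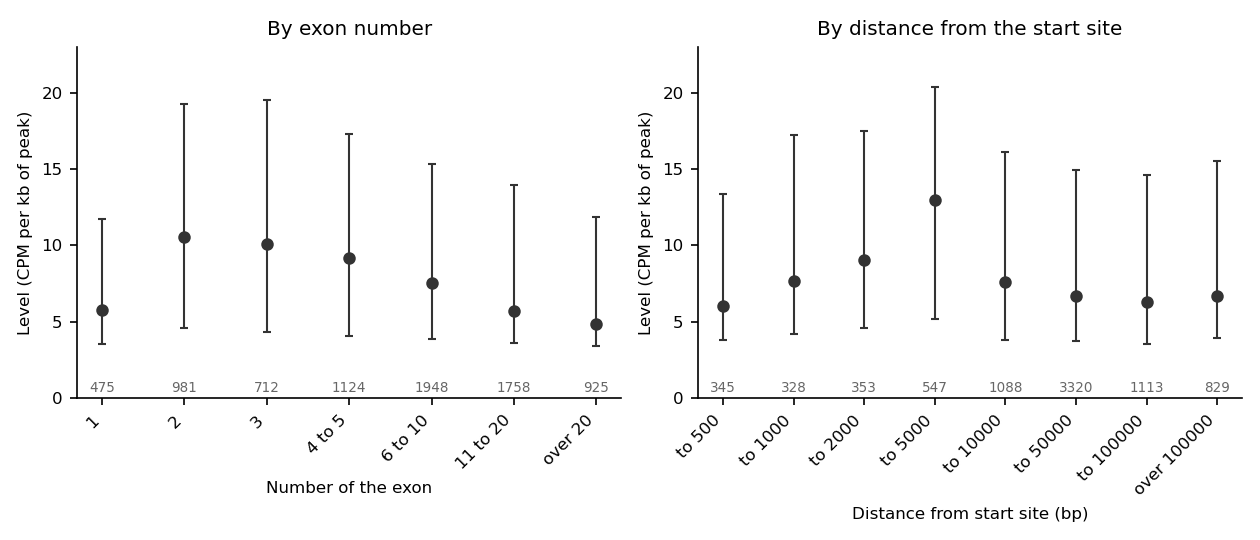
Level of coding exon peaks in CPM per kb of peak, the mean of the 9 libraries, by number of the exon (left) and by distance from the annotated start site (right); points are medians, bars run from the lower to the upper quartile, and the grey numbers count peaks. The medians peak at exon 2 (10.5 CPM per kb) and at 2000 to 5000 bp (12.9 CPM per kb).

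Position in the gene went with the level. Exon 1 held 475 of the peaks with a median of 5.80 CPM per kb. The table gives peaks next to a start site to the TSS class, and the nearest member lay 100 bp from its start site. Exon 2 held 981 peaks with a median of 10.5 CPM per kb, the highest of the 7 exon classes. Exons 4 to 5 had 9.14, exons 6 to 10 had 7.52, exons 11 to 20 had 5.69, and exons after the 20th had 4.87 CPM per kb. By distance from the start site, the 547 peaks at 2000 to 5000 bp had the highest median, 12.9 CPM per kb. The 345 peaks within 500 bp had 6.04, and the 829 peaks beyond 100000 bp had 6.71. The plot of level by position shows that the quartiles of neighbouring classes overlap widely. Across chromosomes, coding exon peaks made up 9.40% of the peaks of chromosome 7 and 8.83% of chromosome 11, against 4.29% of chromosome 13 and 4.39% of chromosome X.

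The strongest coding exon peaks stood above most TSS peaks, whose upper quartile was 32.9 CPM, in all 3 genotypes. The first was in exon 2 of Rnf157, a RING-type ubiquitin ligase (mm9 chromosome 11, 116255803 to 116258540, 15807 bp from the start site). It stood at 89.2, 87.7 and 91.7 CPM in Stat6_KO, at 67.7, 93.9 and 96.5 in Il21e_KO and at 84.4, 99.7 and 55.5 in WT. The 3 groups overlapped, and the gene's strongest TSS peak had a mean of 67.4 CPM. Exon 4 of Fam65c (chromosome 2, 167821384 to 167823733) varied little, with 73.9, 72.4 and 77.1 CPM in Stat6_KO, 74.3, 71.2 and 74.3 in Il21e_KO and 73.4, 77.1 and 82.5 in WT. No TSS peak was listed for it. Exon 21 of Sfi1, which encodes a centrosome protein that binds centrin, averaged 74.1 CPM (chromosome 11, 3042226 to 3043988). How reads matching several places were treated is not given in the sources used here, so the level of a gene with near-identical copies, as Sfi1 has in the mouse, is uncertain.

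Below these came Fgf13 exon 2 at 73.6 CPM, whose protein is an intracellular relative of the fibroblast growth factors that binds sodium channels, and Sidt2 exon 16 at 72.9 CPM, a lysosomal membrane protein. Ptger2 exon 1 averaged 71.7 CPM and encodes the EP2 receptor for prostaglandin E2, a lipid that dampens T cell activation. Its peak (chromosome 14, 45608012 to 45609902) lay 226 bp from the annotated start site, so it is the nearest thing to a promoter peak that the gene has in the table. Shisa5 exon 3 had 69.4, Mocos exon 6 had 69.0, Kbtbd11 exon 2 had 68.2 and Rere exon 12 had 68.0 CPM. Sidt2, Shisa5 and Kbtbd11 shared a pattern in 1 library, Il21e_KO 1, which stood at 99.1, 101 and 97.2 CPM while all other libraries lay between 56.6 and 84.4 CPM. None of the 10 passed in any comparison. At Sidt2 the Stat6_KO group lay below WT, with 58.0, 65.4 and 63.0 CPM against 84.4, 70.1 and 80.6. Il21e_KO 1 does not enter those values.

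**Figure D2:**
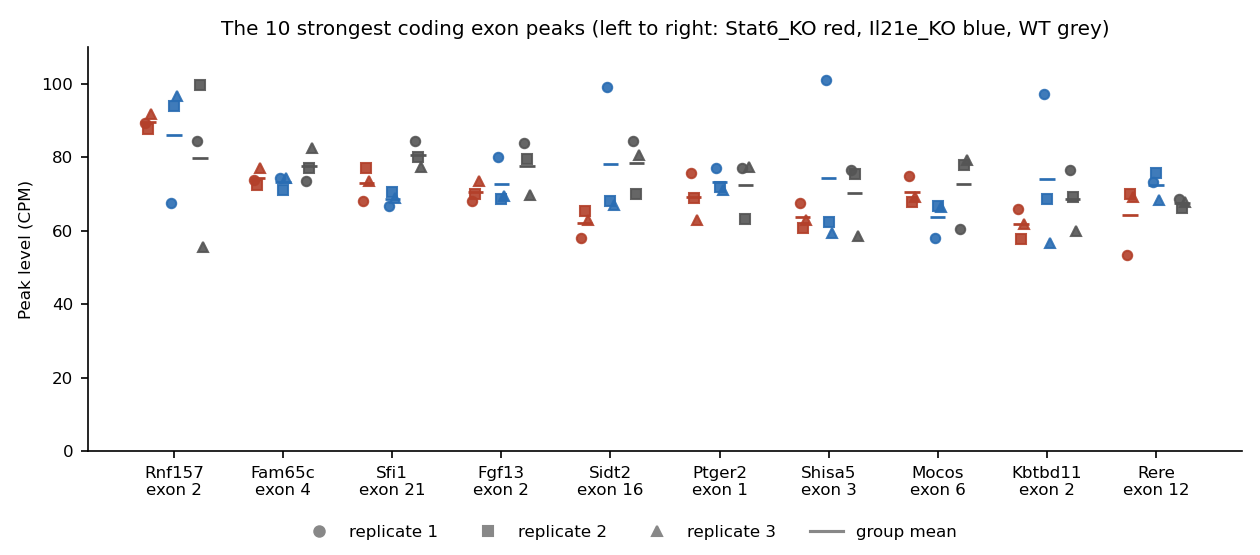
Level in CPM of the 10 coding exon peaks with the highest mean, each library a point and each group mean a bar, with Stat6_KO, Il21e_KO and WT from left to right within each gene. Most points lie between 55 and 100 CPM, and the single high points of Sidt2, Shisa5 and Kbtbd11 belong to Il21e_KO replicate 1.

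The coding exon level of a gene hardly followed the level of its promoter. Over the 3821 genes with both, Spearman's rho between the strongest coding exon peak and the strongest TSS peak was 0.01 in CPM and 0.08 in CPM per kb, a description across genes that share libraries. The coding exon peak was the higher of the pair in 652 genes (17.1%) by CPM and in 858 (22.5%) by CPM per kb. The strongest peaks of genes without a TSS peak, after Fam65c and Ptger2, were in Sag exon 10 (63.6 CPM), Rimbp3 exon 1 (59.9), Csf2ra exon 7 (59.1), Rpgrip1 exon 13 (52.6) and Abi3 exon 5 (52.5). Sag encodes the arrestin of the retina and Rpgrip1 a protein of the photoreceptor cilium, while Csf2ra encodes a chain of the receptor for the myeloid growth factor GM-CSF. Several of these are known for other cell types than T cells. At Sag (chromosome 1, 89724553 to 89726943) the libraries held 62.5, 64.8 and 59.3 CPM in Stat6_KO, 68.6, 66.8 and 56.6 in Il21e_KO and 67.9, 59.2 and 66.4 in WT, and the 3 groups overlapped.

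Most genes had a single open coding exon. Of the 5059 genes, 3363 had 1 such peak, 1046 had 2 and 650 had 3 or more. Kmt2d, Sfi1 and Trio had the most, with 12 each, and Dock8 and Mroh2a had 11. Kmt2d encodes a histone H3 lysine 4 methyltransferase of enhancers. Its 12 peaks lay between exons 16 and 49, all weak, from 0.664 to 2.52 CPM, and 0 passed the filter on low counts. Trio, a guanine nucleotide exchange factor, combined strong and weak peaks, from 0.740 to 35.8 CPM. Dock8, an exchange factor that lymphocytes need for migration, had 11 peaks from 0.763 to 6.76 CPM, of which 1 passed the filter. Genes with 3 or more peaks had a median transcript length of 49.0 kb, against 25.6 kb for genes with 1.

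Summed over its coding exon peaks, Kmt2d stood higher in every Stat6_KO library than in any WT library. The sums were 24.4, 24.7 and 18.3 CPM in Stat6_KO, 7.62, 18.9 and 17.2 in Il21e_KO and 11.6, 6.23 and 14.8 in WT. They rest on 8 to 43 reads per library. WT 1, WT 2 and Il21e_KO 1 had the lowest sums, and these libraries were also low over all weak coding exon peaks together; the part of this in the Kmt2d difference was not tested. Sums at Mroh2a, a gene without a listed TSS peak, overlapped in all 3 pairs of groups, at 58.0, 63.6 and 37.3 CPM in Stat6_KO, 21.9, 50.4 and 58.3 in Il21e_KO and 22.6, 31.1 and 40.6 in WT. Dock8 had its higher values in WT, with 22.2, 25.3 and 15.9 CPM in Stat6_KO, 20.01, 15.1 and 26.1 in Il21e_KO and 25.1, 24.9 and 28.4 in WT, again with overlap. The sums averaged 201 ± 8.36, 189 ± 15.2 and 209 ± 9.73 CPM at Sfi1 and 147 ± 11.6, 147 ± 9.66 and 137 ± 10.6 CPM at Trio in Stat6_KO, Il21e_KO and WT (SD, n = 3 each), with overlap between all groups. No test was made of these 5 sums, and 3 against 3 libraries allow no exact p below 0.1.

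Lists of T cell genes had a larger share of genes with an open coding exon than all genes together, and so did lists of other blood cells and of genes unrelated to T cells. Of all 16126 genes with a peak assigned to them, 31.4% had a coding exon peak. The share was 60.6% (40 of 66) for T cell transcription factors, 56.1% (23 of 41) for cytokine receptors and the JAK-STAT pathway, 55.6% (20 of 36) for T cell receptor signalling and 37.8% (14 of 37) for homing receptors. It was also 66.1% (39 of 59) for chromatin regulators, 61.5% (32 of 52) for keratin, mucin and collagen genes and 40.5% (125 of 309) for solute carrier genes. Of the small marker lists, B cell genes had 57.1% (8 of 14), CD8 T and NK cell genes and myeloid genes had 40% each (4 of 10), and erythroid genes had 33.3% (2 of 6). As for all genes, genes without any assigned peak are left out of these shares. The last 3 of these lists hold 12, 15 and 11 genes in full, so their shares of the full lists are smaller. Short genes were at the other end, with 10.1% (8 of 79) for cytosolic ribosomal protein genes and 1.92% (1 of 52) for replication-dependent histone genes. Olfactory and vomeronasal receptor genes had 0 of 37. Median transcript length was 74.6 kb for chromatin regulators, 45.4 kb for keratin, mucin and collagen genes, 24.985 kb for the T cell transcription factors, 3.35 kb for the ribosomal protein genes and 0.502 kb for the histone genes, against 20.9 kb for all genes. Other lists did not follow that order. Protocadherin genes had the longest median, 102 kb, with a share of 26.9% (7 of 26), and B cell markers and homing receptors had medians of 15.2 and 12.7 kb, shorter than all genes, with larger shares. The part of length in these shares was not tested.

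**Figure D3:**
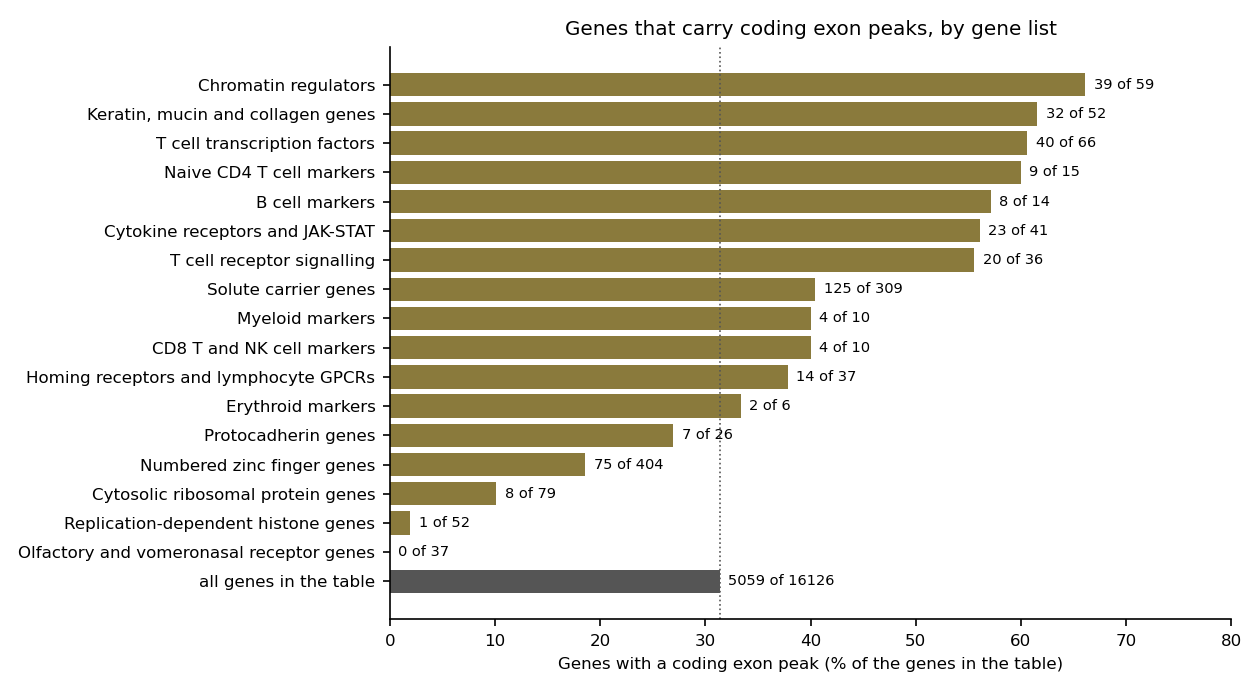
Share of the genes of each list that carry at least 1 coding exon peak, with the counts beside the bars; the dotted line and the dark bar mark all genes in the table, 31.4%. The longest bars belong to chromatin regulators (66.1%), keratin, mucin and collagen genes (61.5%) and T cell transcription factors (60.6%).

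Among the transcription factors, Satb1, a chromatin organiser of T cells, had the strongest coding exon peak, in exon 3, at 62.1 CPM. Foxo1, which keeps naive T cells quiescent and homing, had 60.7 CPM in exon 1, more than the 28.5 CPM of its TSS peak. That exon 1 peak was 1815 bp wide and lay only 610 bp from the start site. Runx3, a factor of the CD8 lineage, had 58.8 CPM in exon 2. Lef1, a partner of TCF-1 in naive T cells, had open exons 6 and 8 at 39.5 and 29.3 CPM. In the receptor pathway the phospholipase gene Plcg1 had 25.7 CPM in exon 22. Of the cytokine pathway, Stat5b had 22.2 CPM in exon 3, the kinase Jak1 had 21.8 in exon 9 and Stat4 had 20.2 in exon 3. The DNA methyltransferase gene Dnmt3a had 53.0 CPM in exon 2. Of the tested peaks of each list, 0 passed in any comparison. The median log2 difference of the 25 tested peaks of cytokine receptors and the JAK-STAT pathway was 0.02 in Stat6_KO against WT and -0.12 in Il21e_KO against WT, against 0.00 and -0.03 over all tested peaks.

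The labelled cell type was checked at the TSS peaks of marker genes. All 15 naive CD4 markers had a TSS peak, among them Cd4, Cd3e and Tcf7, with a median of 16.6 CPM per TSS peak and a summed level per library of 335 to 369 CPM in Stat6_KO, 354 to 492 in Il21e_KO and 353 to 422 in WT. Of the B cell markers, 12 of 14 had a TSS peak, with a median of 1.77 CPM. Of the CD8 T and NK cell markers 8 of 12 had one, with a median of 8.77 CPM, and of the myeloid markers 8 of 15, with a median of 12.7 CPM. Of the erythroid markers 2 of 11 had one, with a median of 17.4 CPM over 3 peaks, above that of the naive CD4 markers. None was listed at Gata1, Klf1, Epor, Alas2, Slc4a1 or the haemoglobin genes. Yet 2 erythroid markers without a TSS peak had a coding exon peak, with a median of 26.8 CPM. One was Klf1, whose peak in exon 2 lay 717 bp from the start site. The coding exon peaks of the B cell markers summed to 43.4 to 59.1 CPM in Stat6_KO, 37.2 to 60.5 in Il21e_KO and 40.4 to 55.3 in WT. The part of other cell types in any coding exon peak was not tested.

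The total signal in coding exons differed little between genotypes. The share of a library's reads that fell into coding exon peaks was 5.95%, 5.84% and 5.80% in Stat6_KO, 5.20%, 5.88% and 5.84% in Il21e_KO and 5.56%, 5.61% and 5.79% in WT. Stat6_KO exceeded WT by 0.208 percentage points without overlap (5.86 ± 0.0779% against 5.65 ± 0.121%, SD, n = 3 each, exact 2-sided permutation p = 0.1, the smallest possible). Over reads outside TSS peaks alone that difference was 0.0374 (p = 0.7 by the same exact permutation test). Il21e_KO lay at 5.64 ± 0.381%, -0.0127 percentage points from WT (SD, n = 3, exact permutation p = 1), and without Il21e_KO 1 the difference was 0.207. Stat6_KO against Il21e_KO gave 0.221 (exact permutation p = 0.5).

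As a share of all reads in listed peaks, the difference between Stat6_KO and WT lay in the weak members. The 3023 peaks that passed the filter, 38.2% of the coding exon peaks against 41.7% of all listed peaks, hold 84.3% of the coding exon signal. They took 4.85%, 4.81% and 4.85% of the reads in Stat6_KO, 4.65%, 4.87% and 4.83% in Il21e_KO and 4.87%, 4.82% and 4.83% in WT, so that 8 of the 9 libraries lay within 4.81% to 4.87%. The 4900 peaks set aside took 1.10%, 1.03% and 0.946% in Stat6_KO, 0.546%, 1.01% and 1.01% in Il21e_KO and 0.695%, 0.783% and 0.963% in WT. Among them WT 1, WT 2 and Il21e_KO 1 were low and the other 6 libraries lay between 0.946% and 1.10%. Set-aside peaks elsewhere outside start sites followed the same libraries, with 13.5%, 12.5% and 12.3% in Stat6_KO, 6.52%, 12.4% and 12.5% in Il21e_KO and 9.52%, 10.5% and 12.8% in WT. With the reads in tested peaks alone as the total, the tested coding exon peaks took 5.72%, 5.60% and 5.63% in Stat6_KO, 5.03%, 5.66% and 5.62% in Il21e_KO and 5.45%, 5.47% and 5.63% in WT. Stat6_KO then exceeded WT by 0.133 percentage points with overlap (exact 2-sided permutation p = 0.3), so where the difference lies depends on the total chosen.

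Coding exon peaks without a single read showed the same libraries. They made up 3.82%, 4.24% and 6.02% of the 7923 in Stat6_KO, 24.4%, 5.35% and 4.00% in Il21e_KO and 13.8%, 14% and 7.19% in WT. Stat6_KO averaged 4.70 ± 1.17% against 11.7 ± 3.87% in WT (SD, n = 3 each, exact 2-sided permutation p = 0.1, the smallest possible). Depth moved with this: the libraries held 1634889 to 1759775 reads in peaks in Stat6_KO, 1049460 to 1802405 in Il21e_KO and 1284426 to 1634247 in WT. After thinning all libraries to the shallowest, the shares were 9.74%, 10.7% and 12.3% in Stat6_KO, 24.4%, 11.1% and 11.1% in Il21e_KO and 20.8%, 17.5% and 13% in WT, and Stat6_KO stayed below WT without overlap. Compared with the other peaks outside start sites, the coding exon share was 0.121, -0.522 and 0.388 percentage points higher in Stat6_KO, -1.55, -0.305 and -0.146 in Il21e_KO and 2.63, 1.89 and 0.837 in WT. Coding exons were thus emptier than the pool of other such peaks in each WT library, with no test made of it. This did not hold against each class in that pool. Of 3′ UTR exon peaks, 13.8%, 13.2% and 7.27% were empty in WT, against 13.8%, 14% and 7.19% of coding exon peaks. The difference in empty peaks between Il21e_KO and WT was -0.421 percentage points (exact permutation p = 1), and -6.99 without Il21e_KO 1.

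**Figure D4:**
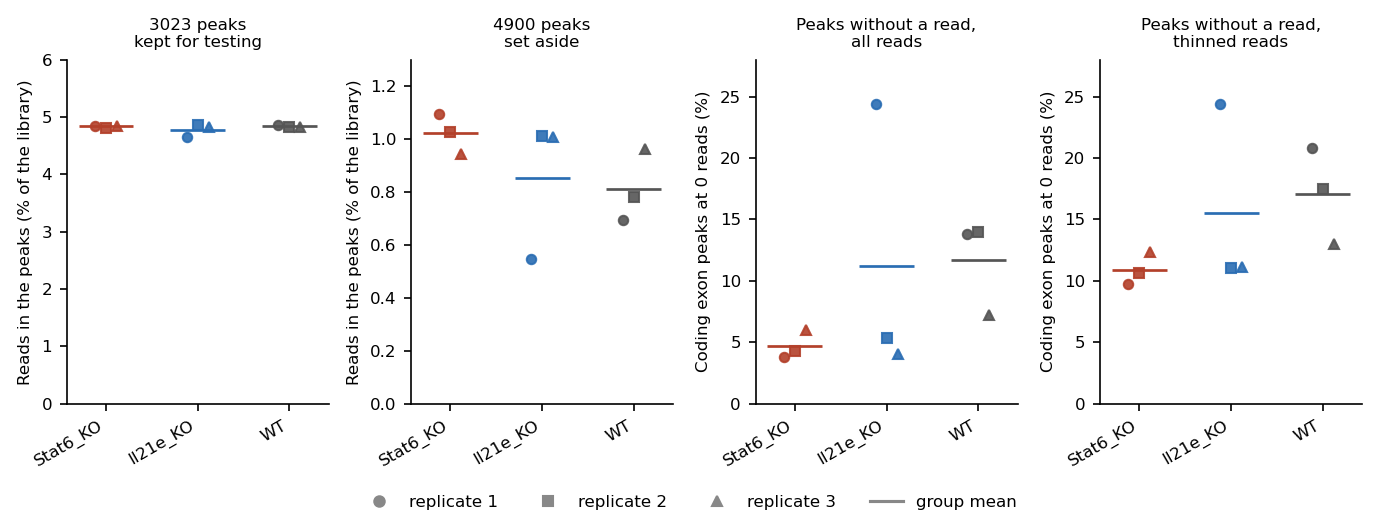
From left to right, the percentage of each library's reads in the coding exon peaks kept for testing and in those set aside, and the percentage of coding exon peaks at 0 reads before and after thinning to equal depth; each point is 1 library and each bar a group mean, with Stat6_KO, Il21e_KO and WT in that order. The kept peaks lie within 4.65% to 4.87% in all libraries, while WT 1, WT 2 and Il21e_KO 1 stand apart in the other 3 panels.

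Il21e_KO 1 was the library that stood apart in coding exons. Over the 3023 tested coding exon peaks, read counts of pairs with it differed by a chi-square per degree of freedom of 1.45 to 2.29. All other pairs lay between 0.701 and 1.04, where independent counts would be expected to give about 1. Pairs of Stat6_KO with WT gave 0.840 to 1.04, above the 0.729 to 0.778 within Stat6_KO, and pairs of Il21e_KO 2 or 3 with WT gave 0.823 to 0.890, against 0.701 between those 2. Pairs of Stat6_KO with Il21e_KO 2 or 3 gave 0.705 to 0.774, and pairs within WT 0.739 to 0.951, a range that overlaps with those of WT against both knockouts. Nearly all pairs without Il21e_KO 1 lay below 1, so 1 does not measure the noise of these values. Whether such pairs differed beyond noise was not tested. These values also cannot show whether libraries came from the same sample, and each was counted on its own. Counts for comparisons that rest on Il21e_KO are given with and without it. Of the 32 log2 differences of peaks named for a small p in these comparisons, 6 were more than 1.5 times smaller without it, and those values are given; 21 others were smaller and 5 larger.

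The comparison of Stat6_KO with WT asks which coding exons change their accessibility when STAT6 is missing. At Stat6 itself, 2 coding exon peaks were listed. They lie in the gene that the knockout alters, and how it was altered is not described here. Read counts at these peaks cannot separate a change of accessibility from a change of the DNA itself. The exon 12 peak (chromosome 10, 127091973 to 127092691) held 5, 3 and 3 reads in Stat6_KO, 5, 15 and 13 in Il21e_KO and 11, 9 and 19 in WT. The exon 16 peak (chromosome 10, 127094700 to 127095673) held 41, 33 and 25 reads in Stat6_KO, 2, 11 and 14 in Il21e_KO and 9, 12 and 17 in WT. Within 1 gene the 2 exons thus lay on opposite sides, exon 12 lower in Stat6_KO and exon 16 higher, both without overlap with WT. On the log2(CPM + 1) scale exon 12 differed by -1.59 ± 0.39 and exon 16 by 1.11 ± 0.36 (SE, n = 3 each).

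Neither passed when all 48287 tested peaks were adjusted together (limma-trend, adjusted p = 1.00 for both, with ranges of 0.0274 to 1.00 and 0.0206 to 1.00 over 18 alternatives). Exon 16 passed in a fit of Stat6_KO and WT alone (adjusted p = 0.0206), and without Il21e_KO 1 both passed (exon 12 adjusted p = 0.0274, exon 16 adjusted p = 0.0217, limma-trend), although that library belongs to neither group and enters only the estimate of the spread. Il21, Il2 and Cd4 had no coding exon peak listed. Foxp3, the factor of regulatory T cells, had peaks in exons 4 and 7 at 11 and 4.01 CPM, and the Th2 factor gene Gata3 had one in exon 2 at 0.993 CPM.

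Of the 3023 tested coding exon peaks, 0 were called in Stat6_KO against WT by limma-trend at an adjusted p under 0.05, where 0.0104% of all tested peaks were called. At an unadjusted p under 0.05 there were 96 (3.18%), against 3.29% of all tested peaks, 58 higher and 38 lower in Stat6_KO, where all tested peaks gave 809 higher and 782 lower. edgeR and DESeq2 on the recovered reads also called 0 and gave 122 (4.04%, against 3.66% of all tested peaks) and 26 (0.86%, against 0.951%) at that unadjusted p. The split was 52 higher to 45 lower with factors from the trimmed mean of M values (TMM), 86 to 36 with edgeR and 21 to 5 with DESeq2. Groups did not overlap at 421 (13.9%), against 13.2% of all tested peaks. The median log2 difference was 0.03, against 0.00 over all tested peaks. Without Il21e_KO 1 the unadjusted count was 263 (8.70%), against 9.21% of all tested peaks.

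Peaks named here and below for a small p were picked in these same libraries. A lack of overlap between their groups was largely set by that choice and is no support for a difference. Among the peaks with the smallest unadjusted p, Sufu exon 8 encodes part of a repressor of Hedgehog signalling. It held 21, 20 and 24 reads in Stat6_KO, 5, 13 and 12 in Il21e_KO and 6, 7 and 12 in WT, a log2 difference of 1.10 ± 0.30 from WT (SE), with no overlap between Stat6_KO and either other group. Usp54 exon 13 had 11.4, 10.6 and 12.2 CPM in Stat6_KO against 5.51, 6.23 and 5.16 in WT. Zfp598 exon 2, of a ubiquitin ligase that senses collided ribosomes, had 11.9, 11.8 and 12.2 CPM in Stat6_KO against 6.73, 6.23 and 6.45 in WT. These peaks lay higher in every Stat6_KO library than in any WT library. So did Mtmr3 exon 11 (log2 difference 0.70 ± 0.21), Nbn exon 13 (0.87 ± 0.26, and 0.55 without WT 3), Desi2 exon 3 (0.60 ± 0.20), Sfpq exon 8 (0.85 ± 0.28) and Acadl exon 9 (0.60 ± 0.21). NBN belongs to the complex that senses DNA breaks, SFPQ is a splicing factor and ACADL starts the oxidation of long-chain fatty acids.

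On the other side stood Arhgef1 exon 14, of an exchange factor for RhoA in lymphocytes, with 7.96, 10.01 and 5.50 CPM in Stat6_KO against 15.3, 14 and 13.5 in WT (log2 difference -0.82 ± 0.24, SE). Adrbk1 exon 2, of the kinase GRK2 that desensitises G protein-coupled receptors, had 18.2, 13.5 and 17.7 CPM in Stat6_KO against 25.1, 26.5 and 25.2 in WT. Gtf2i exon 12 had 9.66, 11.2 and 7.95 CPM in Stat6_KO against 15.9, 19.5 and 16.1 in WT. Gpd2, Map3k19, Cmtm7 and Fam131a followed, with log2 differences of -0.64, -0.52, -0.75 and -0.60. All 7 were lower in every Stat6_KO library than in any WT library, which the choice by small p largely set. None had an adjusted p under 0.05 in any of the 18 alternatives run.

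**Figure D5:**
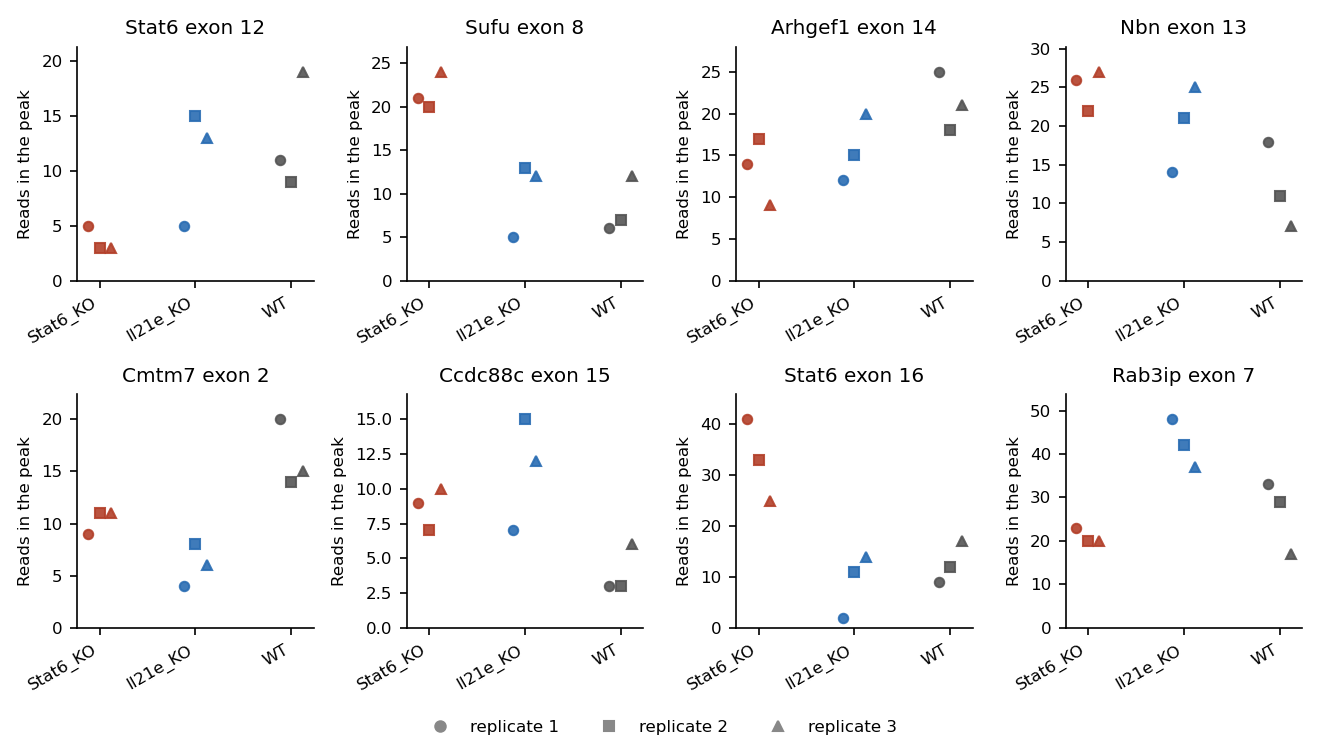
Reads in 8 coding exon peaks with small unadjusted p-values, each point 1 library, with Stat6_KO, Il21e_KO and WT from left to right and a vertical axis from 0 in each panel. Stat6 exon 12 and exon 16 lie on opposite sides of WT in Stat6_KO, and most panels hold fewer than 30 reads per library.

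The comparison of Il21e_KO with WT asks the same of the Il21e deletion. By limma-trend 0 of the 3023 coding exon peaks were called, and 0.0% of all tested peaks. At an unadjusted p under 0.05 there were 103 (3.41%), against 3.52% of all tested peaks, 30 higher and 73 lower in Il21e_KO, and edgeR and DESeq2 called 0 with 73 (2.41%, against 2.56% of all tested peaks) and 13 (0.43%, against 0.654%) at that unadjusted p. With TMM factors the split was 37 higher to 69 lower, with DESeq2 4 to 9 and with edgeR 42 to 31, so that edgeR alone of these put more peaks on the higher side. Over all tested peaks limma-trend gave 533 higher and 1165 lower. Groups did not overlap at 241 (7.97%), against 7.28% of all tested peaks. Without Il21e_KO 1 the unadjusted count was 195, 118 higher and 77 lower, or 6.45% against 6.9% of all tested peaks, and 0 were called. The direction of the majority thus changed without that library. Groups then did not overlap at 675 (22.3%), against 21.4% of all tested peaks. The median log2 difference was -0.04 with it and 0.03 without it.

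Cmtm7 exon 2, of a membrane protein of the MARVEL family, had the smallest p. It held 4, 8 and 6 reads in Il21e_KO, 9, 11 and 11 in Stat6_KO and 20, 14 and 15 in WT, a log2 difference of -1.25 ± 0.30 between Il21e_KO and WT (SE, limma-trend adjusted p = 1.00, and 0.358 to 1.00 over the alternatives). Both knockouts lay below every WT library, and the 2 comparisons share the WT libraries. Glipr2 exon 4 had 4.76, 7.56 and 9.43 CPM in Il21e_KO against 13.5, 12.5 and 15.5 in WT. Rtkn2 exon 12 had 3.81, 5.67 and 7.77 CPM in Il21e_KO against 11.6, 11.7 and 9.67 in WT. By CPM, Il21e_KO 1 was the lowest library of its group in Glipr2, Rtkn2, Ppm1e, Oit3, Kdm1a and Ppp2r5d. In Slain2 it was Il21e_KO 2, and in Cmtm7 it was Il21e_KO 3, with 3.33 CPM against 3.81 in Il21e_KO 1. Kdm1a encodes the histone demethylase LSD1, and Ppp2r5d a regulatory subunit of the phosphatase PP2A. Their log2 differences were -1.01 ± 0.33 and -1.25 ± 0.42 (SE), and Ppp2r5d exon 9 held 1, 10 and 13 reads in Il21e_KO against 15, 13 and 20 in WT. Without Il21e_KO 1 the log2 difference was -0.65 at Kdm1a, -0.59 at Ppp2r5d and -0.44 at Ppm1e, against -0.75 at Ppm1e with it.

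Peaks with higher levels in Il21e_KO included Ccdc88c exon 15, of a protein that binds Dishevelled in the Wnt pathway, with 7, 15 and 12 reads in Il21e_KO, 9, 7 and 10 in Stat6_KO and 3, 3 and 6 in WT. Its log2 difference was 1.25 ± 0.39 (SE, limma-trend adjusted p = 1.00). Chpf exon 3 had 22.9, 18.3 and 19.97 CPM in Il21e_KO against 12.2, 11.7 and 16.1 in WT. Nbn exon 13, higher in Stat6_KO as well, had 13.3, 13.2 and 13.9 CPM in Il21e_KO against 11, 8.56 and 4.51 in WT. Strada, Btbd11 and Slc32a1 also lay above every WT library, with log2 differences of 0.66, 0.68 and 0.57. Msh5 (0.68) and Rab3ip (0.74) overlapped with WT. Rab3ip stood at 0.42 without Il21e_KO 1 and at 0.44 without WT 3, and without WT 3 Slc32a1 stood at 0.37 and Nbn at 0.43, against 0.75 for Nbn with it.

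Set directly against each other, Stat6_KO and Il21e_KO differed at 0 coding exon peaks called by limma-trend, where 0.0104% of all tested peaks were called, with a lowest adjusted p of 0.506. At an unadjusted p under 0.05 there were 154 (5.09%), against 5.68% of all tested peaks. Of these, 109 were higher and 45 lower in Stat6_KO, against 1596 and 1148 over all tested peaks, but with TMM factors the split was 81 to 70, and without Il21e_KO 1 it was 55 to 55 among 110 (3.64%, against 3.89% of all tested peaks). edgeR and DESeq2 called 0 and gave 107 (3.54%, against 4.66% of all tested peaks) and 30 (0.992%, against 1.74%) at the unadjusted p. Groups did not overlap at 295 (9.76%), against 11% of all tested peaks, and without Il21e_KO 1 at 586 (19.4%), against 20.8%.

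Stat6 exon 16 had the smallest p, with a log2 difference of 1.77 ± 0.36 (SE). It passed without Il21e_KO 1 (limma-trend adjusted p = 0.0326), where the difference was 1.27. Rab3ip exon 7, of an activator of the GTPase Rab8, held 23, 20 and 20 reads in Stat6_KO against 48, 42 and 37 in Il21e_KO, a log2 difference of -1.18 ± 0.28. Kif5a exon 25, of a neuronal kinesin, held 7, 7 and 2 reads in Stat6_KO against 10, 14 and 17 in Il21e_KO, and lies on chromosome 10, 423 kb from Stat6 exon 12. Rptor exon 3, of the mTORC1 subunit raptor, had 13.6, 12.95 and 8.56 CPM in Stat6_KO against 32.4, 20.8 and 15.5 in Il21e_KO. Mnt, Dtx4, Sox13, Gtf2i and Clip2 also lay below every Il21e_KO library, with log2 differences of -0.68, -0.64, -0.62, -0.72 and -0.62. In each of these and in Rab3ip, Kif5a and Rptor, Il21e_KO 1 was the highest Il21e_KO library in CPM. At Mnt exon 3 it had 71.5 CPM against 36.5 and 34.4 in the others. At Kif5a it was highest by little, with 9.53 CPM against 8.82 and 9.43. Without Il21e_KO 1 the log2 difference was -0.35 at Mnt and -0.41 at Gtf2i. At Kif5a it was -1.40 without that library, against -1.42 with it.

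Tll2 exon 15 had 14.2, 12.4 and 11 CPM in Stat6_KO against 2.86, 4.41 and 8.88 in Il21e_KO (log2 difference 1.19 ± 0.31, SE). Tpr exon 48, of the basket of the nuclear pore, held 13, 11 and 22 reads in Stat6_KO against 1, 6 and 4 in Il21e_KO (1.64 ± 0.53). Ccdc93, Stk16, Kcnq5, Xirp1 and Mphosph9 had log2 differences of 0.77, 0.78, 1.04, 0.76 and 0.59. In each of these 7 genes the Stat6_KO libraries lay above all Il21e_KO libraries, which the choice by small p again largely set. By CPM, Il21e_KO 1 was the lowest Il21e_KO library in 6 of them, the exception being Xirp1, where Il21e_KO 3 was lowest.

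Coding exon differences showed no correlation with those at the promoter of the same gene. Over the 1718 genes with a tested peak of each kind, Pearson's r between the log2 differences of the strongest coding exon peak and of the strongest TSS peak was 0.000616 in Stat6_KO against WT, 0.000652 in Il21e_KO against WT and -0.00429 in Stat6_KO against Il21e_KO. These are descriptions across genes, which share their libraries. In Stat6_KO against WT the log2 differences had an SD of 0.268 and a median SE of 0.246 in coding exons. At start sites these were 0.209 and 0.210. In Stat6_KO against Il21e_KO they were 0.311 and 0.246 in coding exons and 0.263 and 0.210 at start sites. With errors of that size, a correlation near 0 cannot show whether coding exons follow promoters.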

How the data were processed

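ATAC-seq was done on naive CD4+ T cells, enriched by negative selection and tagmented with the Nextera enzyme, and read as 75-base pairs. Per the submitters' processing notes, the tools were HOMER, MACS2 2.0 and Bowtie 1.3.0, with no roles stated, and the genome build was mm9. The values deposited by the authors are CPM: each library was divided by its own reads in the listed peaks. Whether peaks were called on pooled libraries is not given in the sources used here.

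Within each library the values came out as whole multiples of 1 step (100% within 0.01 read). That step was taken as 1 read, which CPM alone cannot prove. Libraries held 1049460 to 1802405 reads in peaks. A count of 0 allows up to 3 reads, or 1.66 to 2.86 CPM, for counting error only. The gene and annotation columns were read by content, since their headers are shifted.

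Peaks were kept by filterByExpr of edgeR 4.0.16 (minimum count 10, total 15) on the recovered reads, which left 48287. Genotypes were compared on the log2(CPM + 1) scale by limma-trend, with limma 3.58.1 in R 4.3.3, over all 9 libraries, adjusted by Benjamini-Hochberg over the 48287 at 0.05. A difference on this scale understates the change of weak peaks. edgeR's quasi-likelihood test and DESeq2 1.42.0 on the recovered reads were alternatives. edgeR called 6 of all tested peaks in Stat6_KO against WT, 0 in Il21e_KO against WT and 12 in Stat6_KO against Il21e_KO, none in a coding exon. Shares per library were compared by exact 2-sided permutation tests (scipy 1.17.1). The model fit was tested on simulated data.

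Peaks are named by a rule: any that passed, for each comparison 8 higher and 8 lower peaks by smallest p (1 per gene, without pseudogenes and unnamed loci), the 10 strongest, the 5 genes with the most peaks, the 3 strongest tested peaks of each list, and those of Stat6, Il21, Il2, Foxp3, Gata3 and Cd4. Some peaks that the rule names are not reported here. The members, lists and rule were chosen with earlier results of these data known. Peak sequences are not shown, since no mm9 genome was used here.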

Additional observations from a re-analysis of the deposited data

How the results depend on the processing

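The counts of called coding exon peaks stayed at 0 in Il21e_KO against WT under all 18 alternatives. In Stat6_KO against WT the count was 1 when only those groups were fitted, and leaving out each library in turn gave 0 to 2. In Stat6_KO against Il21e_KO leaving out each library gave 0 to 1. Calls appeared only at the 2 Stat6 peaks, and the leave-one-out calls came without Il21e_KO 1.

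The share of reads in coding exon peaks changed sign where reads outside TSS peaks were the total. It became 0.182 percentage points in Il21e_KO against WT and -0.144 in Stat6_KO against Il21e_KO. TSS peaks took 42.7% of the reads in Il21e_KO 1, against 31.6% to 36.4% in the other libraries. The coding exon share of Il21e_KO 1 was 5.20% of all reads in peaks and 9.08% of those outside TSS peaks. What made its TSS share high was not tested. Leaving out each library gave -0.133 to 0.207 in Il21e_KO against WT. For peaks without a read, leaving out each library gave -6.99 to 3.20 percentage points in Il21e_KO against WT and -10.2 to 0.0189 in Stat6_KO against Il21e_KO. The median log2 difference of coding exon peaks in Stat6_KO against WT was 0.12 without the filter and -0.01 with TMM factors. For the peaks named for the smallest p in a comparison, 1 per gene, 862 of 864 values under alternatives kept their direction and their side of the threshold. The 2 exceptions were Stat6 peaks without Il21e_KO 1. These peaks were picked for a small p in the same libraries, and none passed in the main fit. Keeping direction and side was thus largely set by that choice and is no support for the differences.

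Replicate numbers did not pair the libraries: same-numbered libraries had correlations of -0.186 to 0.249 in 9 pairs, others -0.302 to 0.242 in 18 pairs, and 3 of 9 libraries correlated best with their own number. With the replicate number as a block, 0 coding exon peaks were called in each comparison, and 91 (3.01%), 100 (3.31%) and 151 (5%) had an unadjusted p under 0.05, against 3.04%, 3.54% and 5.96% of all tested peaks. The block left the shares at 0.208, -0.0127 and 0.221 percentage points and the peaks without a read at -6.97, -0.421 and -6.55 (Stat6_KO against WT, Il21e_KO against WT, Stat6_KO against Il21e_KO), and exact sign flips of 3 pairs cannot go below p = 0.25.

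Depth limits these results: 4900 of the 7923 coding exon peaks held too few reads to be tested.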
